A study of Glycine max with 6 samples.

Results

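Aquaporins, the membrane channels that let water and some small neutral solutes cross cell membranes, were compared between the paraveinal mesophyll (PVM) and the palisade parenchyma (PP) of mature soybean leaves. Members were chosen by a naming rule, with earlier results of these data known. They are the soybean probe sets whose only gene carries a symbol or synonym of the form PIP, TIP, NIP or SIP, a clade number from 1 to 4, and a gene number. Of 37593 soybean probe sets on the array, 45 met this rule, and they belong to 23 genes, of 6031 genes that a probe set with a single symbol names. The PIP subfamily had 25 probe sets for 14 genes, TIP had 12 for 3, NIP had 3 for 3 and SIP had 5 for 3. The same naming rule finds 53 aquaporin genes in the RefSeq gene table of the assembly Glycine_max_v4.0, so 30 genes had no member probe set and were not analysed here.

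Plant aquaporins are grouped by sequence and by where most of them sit. PIPs (plasma membrane intrinsic proteins) carry water across the plasma membrane, and in maize PIP1 proteins need a PIP2 partner to reach it. TIPs (tonoplast intrinsic proteins) sit in the vacuolar membrane and can also pass small solutes such as urea and ammonia. NIPs (nodulin 26-like intrinsic proteins) pass solutes such as boric acid and silicic acid, and SIPs (small basic intrinsic proteins) were located to the endoplasmic reticulum in Arabidopsis. The PVM is a layer of large vacuolate cells spread between palisade and spongy tissue at the level of the veins, known in soybean for storing vegetative storage protein in its vacuoles.

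The 2 groups were 3 PVM arrays and 3 PP arrays, each hybridised with RNA of its own pool of laser-microdissected cells. All plants were untreated and raised in growth chambers. The labels give neither cultivar nor plant age, nor whether a PVM and a PP pool shared a plant. For both layers the leaf tissue was preserved in an ethanol and acetic acid fixative, and the RNA was amplified ahead of labelling.

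The arrays carried 1 intensity for each probe set, and background was set on each array at the 95th percentile of probe sets for other organisms, which was an intensity of 11.0 to 15.5 on PVM arrays and 17.2 to 20.7 on PP arrays. Over all tested probe sets PP arrays 1 and 2 correlated at 0.947, above the other 14 pairs of arrays at 0.811 to 0.885, and the 3 PVM arrays correlated with each other (0.847 to 0.870) no more than with PP array 1 (0.856 to 0.878). Markers of the layers were described. Of 23 tested probe sets of vegetative storage protein and lipoxygenase genes, which mark the PVM, 23 were higher on every PVM array than on any PP array after quantile normalization. In deposited intensity 22 were so. Among all tested probe sets these shares were 8.62% and 8.6%. That list was known from earlier results of these data, so its counts are no independent test of layer identity. Of 16 tested chlorenchyma probe sets, 11 were lower in PVM and 5 higher, where 46.3% of all tested probe sets were higher. After normalization the layers did not overlap for 4 lower and 1 higher, where 10.1% and 8.62% of all did so. That 1 higher passed the filter described below through its PVM arrays alone. In deposited intensity these counts were 10 and 1, where the shares were 11.1% and 8.6%. The list's summed deposited intensity was 79671 to 108866 in PVM, against 126403 to 143907 in PP. Vein and epidermal lists matched few genes. The vein probe sets, of the sucrose synthase SS and the sucrose transporter SUT1, summed to 366 to 2182 in PVM and 391 to 535 in PP. The 2182 was PVM array 1, where 1 SS probe set read 785, against 13.9 and 13.5 on PVM arrays 2 and 3. The 366 was PVM array 3, below every PP array. Of 5 tested, 4 were higher in PVM and 1 lower. One of the 4, of SS, measured 117, 38.0 and 72.9 in PVM against 4.45, 13.6 and 12.6 in PP. It was thus higher on every PVM array, but it passed the filter described below through its PVM arrays alone, which fixed its direction. The probe sets of the guard cell factor MYB60 summed to 35.6 to 433 in PVM and 24.0 to 91.5 in PP, and 2 of 2 tested were higher in PVM. Of these 2, 1 passed the filter through its PVM arrays alone, which fixed its direction. In these lists no probe set was listed at 0 on all arrays. The part of vein or epidermal RNA in the results below was not tested.

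A probe set entered the test if 3 or more of the 6 arrays showed it above background. This held for 35 of the 45 aquaporin probe sets, from 17 of the 23 genes. Differences are PVM minus PP on the quantile-normalized log2(intensity + 16) scale, with the standard error (SE) and the Benjamini-Hochberg adjusted p of limma over all 25314 tested probe sets. Intensities are the deposited values. A probe set's brightness depends on its own probes, so levels were compared between layers within a probe set and not between genes.

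No aquaporin probe set passed an adjusted p of 0.05 in either direction, where 0.0435% of all tested probe sets passed as higher in PVM and 0% as lower. The smallest adjusted p of a member was 0.182. At an unadjusted p under 0.05 the members counted 8 higher and 3 lower in PVM of 35, where 6.53% and 5.63% of all tested probe sets did. By sign, 22 members had a positive difference and 13 a negative one, where 46.3% of all tested probe sets were positive. Their median log2 difference was 0.29, against -0.06 over all tested probe sets. In RNA from pooled cells, a difference in RNA per cell cannot be told apart from a difference in the kinds of cell collected. The median of PIP2 was 0.83 and that of SIP -1.03. The members ran from -1.51 to 1.88, while the quartiles of all tested probe sets were -0.46 and 0.39. For 12 members the 3 PVM values all lay above the 3 PP values, and for 3 they all lay below. Among all tested probe sets these shares were 8.62% and 10.1%. In deposited intensities the members counted 10 above and 5 below, where 8.6% and 11.1% of all tested probe sets did. Several probe sets measured the same gene, so these counts are not of separate genes. With 1 probe set per gene, the one with the highest mean, 11 of 17 genes had a positive difference and the median was 0.46. The layers did not overlap for 7 genes higher and 2 lower, and in deposited intensities for 5 and 2. Of the members, 1, of LOC547794, passed the filter through PVM arrays alone and 0 through PP arrays alone. The filter fixed its direction, and it is included in each count of higher or positive members above, by probe set and by gene. Over all 45 members without the filter, 28 had a positive and 17 a negative difference, the median was 0.21, and the median over all 37593 soybean probe sets was then -0.02.

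**Figure D1:**
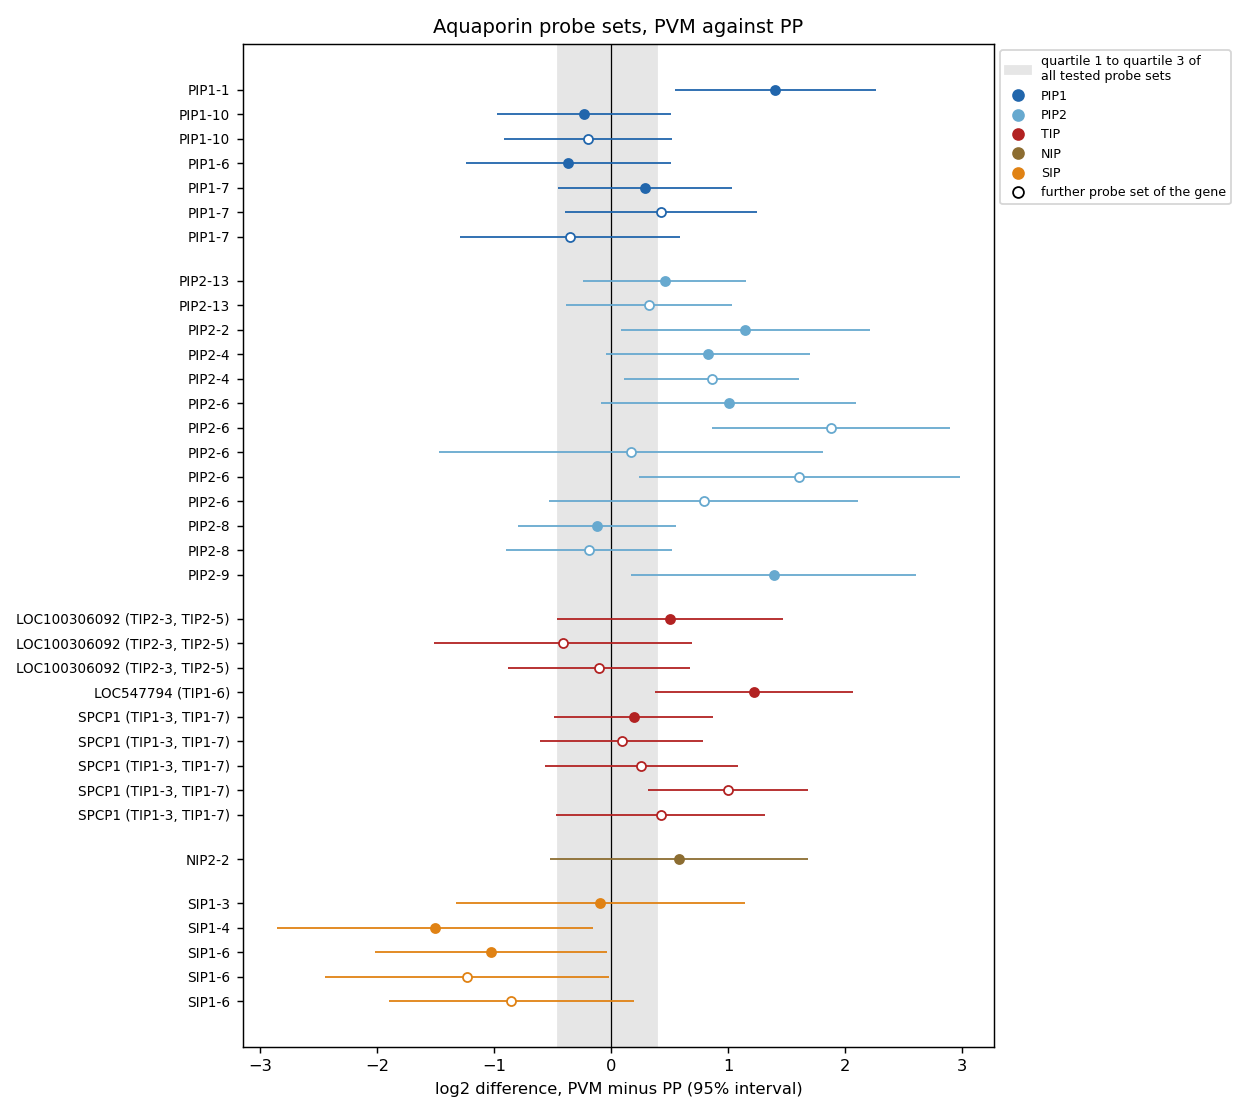
Log2 difference, PVM minus PP, with the unadjusted 95% interval from limma (x axis), for the 35 tested aquaporin probe sets (1 row each, by gene and subfamily). Filled points mark the probe set that stands for its gene, open points its further probe sets, and the grey band runs between the quartiles of all tested probe sets; most PIP2 points lie right of the band and 4 of the 5 SIP points left of it.

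The PIP2 clade, whose members form the main water pores of the plasma membrane, showed a positive difference on 11 of 13 tested probe sets and a negative one on 2. The median log2 difference was 0.83. Its 6 tested genes were PIP2-2, PIP2-4, PIP2-6, PIP2-8, PIP2-9 and PIP2-13. The layers did not overlap for 8 probe sets higher in PVM and 1 lower, where 8.62% and 10.1% of all tested probe sets did so. In deposited intensities these counts were 7 and 2, where the shares of all tested probe sets were 8.6% and 11.1%. None passed the threshold.

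PIP2-6, a plasma membrane channel covered by 5 tested probe sets, held the largest difference among the members. On that probe set, the second brightest of the gene, PVM arrays 1 to 3 measured 321, 655 and 871, against 152, 121 and 131 on PP arrays 1 to 3. Every PVM array lay above every PP array. The log2 difference was 1.88 (SE 0.44), 3.68-fold, with a 95% interval of 0.86 to 2.90 and an adjusted p of 0.182 by limma. With any array left out the difference was between 1.54 and 2.29.

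The other probe sets of PIP2-6 gave smaller differences. The brightest measured 626, 913 and 1592 in PVM against 659, 334 and 445 in PP, giving 1.01 (SE 0.47) on the log2 scale. There PP array 1 lay above PVM array 1, so the layers overlapped. Another measured 78.3, 154 and 155 in PVM against 63.7, 47.2 and 2.69 in PP, giving 1.61 (SE 0.59), with PP array 3 below background. The difference on that probe set was 0.98 without PP array 3. The dimmest differed by 0.79, with PP array 2 below background. The remaining probe set measured 141, 128 and 119 in PVM against 73.6, 41.4 and 371 in PP. PP array 3 was the highest of the 6 values and the other PP arrays the lowest. Its difference was 0.17. Leaving out PP array 3 gave 1.01, leaving out array 1 of that layer gave -0.085, and leaving out its array 2 gave -0.43, so the sign depended on which PP arrays entered.

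PIP2-9 measured 91.2, 184 and 107 in PVM against 84.2, 27.4 and 16.1 in PP. The lowest PVM value stood just above the highest PP value, and PP array 3 was below background. Its log2 difference was 1.39 (SE 0.52, adjusted p = 0.354 by limma), between 1.05 without PP array 3 and 1.88 without PP array 1. PIP2-2 measured 91.5, 236 and 97.3 in PVM against 42.1, 67.7 and 30.1 in PP, again without overlap. Its difference was 1.15 (SE 0.46, adjusted p = 0.383), and 0.71 without PVM array 2, its highest array.

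PIP2-4 gave nearly the same difference on both of its probe sets. The brighter measured 4740.1, 4234 and 4101 in PVM against 2115, 2469 and 4759 in PP. PP array 3 was as high as the PVM arrays before normalization and lay below them after it. On the log2 scale it differed by 0.83 (SE 0.37, adjusted p = 0.432 by limma). The second probe set measured 643, 638 and 546 in PVM against 258, 289.8 and 406 in PP and differed by 0.86 (SE 0.32). Here the layers were apart before normalization too.

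PIP2-13 and PIP2-8 differed by less. PIP2-13 measured 1737, 1531 and 1503 in PVM against 1292, 1057 and 1253 in PP. The layers did not overlap, and the log2 difference was 0.46 (SE 0.30, adjusted p = 0.593 by limma), with 0.32 on its other probe set. PIP2-8 measured 10520.0, 8860.2 and 11398 in PVM against 13567, 14794 and 16248 in PP. Each PVM array was below each PP array, yet the difference after quantile normalization was -0.12 (95% interval -0.79 to 0.55). Without quantile normalization it was -0.54 on the same log2 scale, and the second probe set of PIP2-8 differed by -0.19.

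**Figure D2:**
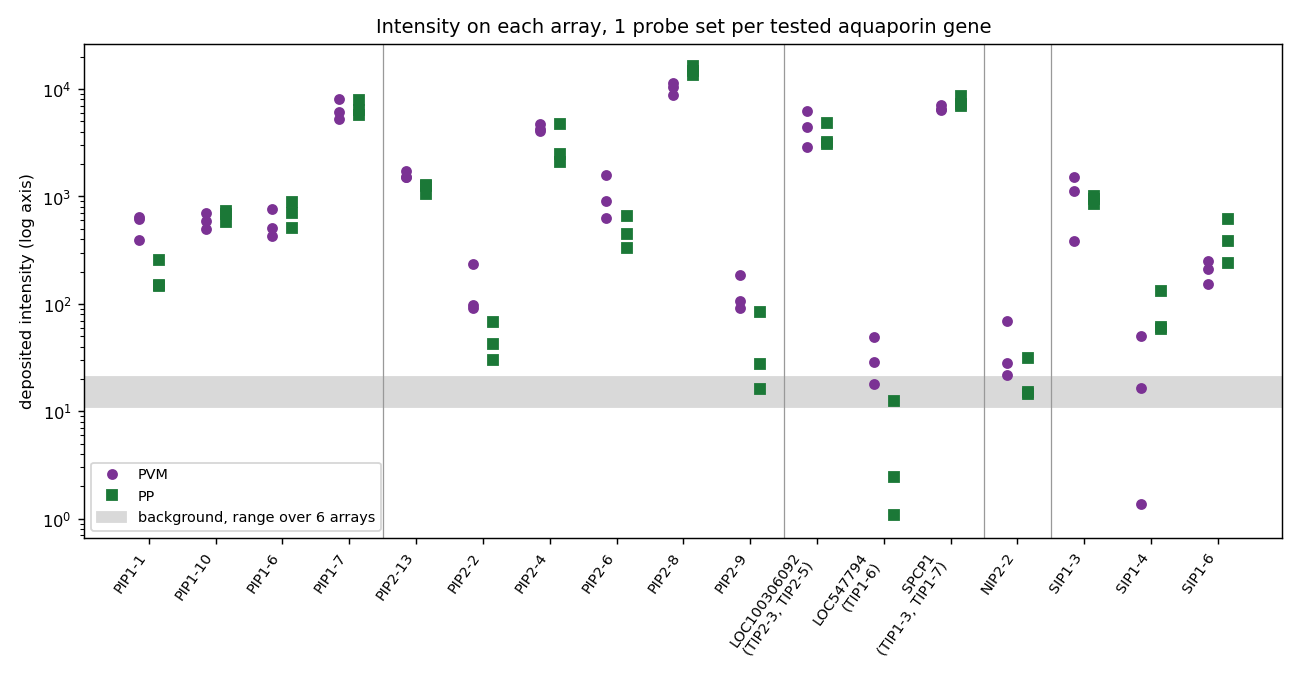
Deposited intensity on each array (y axis, log scale) for 1 probe set of each of the 17 tested aquaporin genes (x axis, by subfamily: PIP1, PIP2, TIP, NIP, SIP). Circles are the 3 PVM arrays, squares the 3 PP arrays, and the grey band is the range of the background over the 6 arrays, 11.0 to 20.7. PIP1-1, PIP2-2, PIP2-9, PIP2-13 and LOC547794 have every circle above every square, and PIP2-8 and SIP1-4 have every circle below every square.

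The PIP1 clade did not share the direction of PIP2: of its 7 tested probe sets, 3 differed upward and 4 downward, and the median log2 difference was -0.20. With 1 probe set for each of its 4 tested genes the median was 0.028. No test of PIP1 against PIP2 was made.

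PIP1-1 was the PIP1 gene with the largest difference. It measured 638, 621 and 392 in PVM against 258, 148 and 149 in PP. The lowest PVM array lay above the highest PP array. The log2 difference was 1.40 (SE 0.37), 2.64-fold, with a 95% interval of 0.54 to 2.26 and an adjusted p of 0.229 by limma, and it stayed between 1.26 and 1.63 with any array left out.

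The other 3 PIP1 genes overlapped between layers on every tested probe set. The brightest probe set of PIP1-7 measured 6126, 5229 and 8062 in PVM against 6376, 5697 and 7996 in PP. The layers are nearly level there, and the difference was 0.29 with quantile normalization and -0.056 without it. Its second probe set was at 0.43, and its dimmest, at or near background in both layers, at -0.35. PIP1-10 measured 499, 587 and 699 in PVM against 685, 738 and 583 in PP, a difference of -0.23 (95% interval -0.98 to 0.51). PIP1-6 measured 758, 512 and 429.7 in PVM against 889, 704 and 510.4 in PP, a difference of -0.37 (95% interval -1.24 to 0.51). PIP1-7 and PIP1-10 probe sets share the cluster number in their names with a probe set of VSPA, the vegetative storage protein gene, and with 3 further symbols; what the shared number means for their probes was not tested.

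The TIP subfamily, the channels of the vacuolar membrane, differed upward on 7 of 9 tested probe sets and downward on 2, at a median of 0.26 (log2). The layers did not overlap for 3 of them, all higher in PVM, where 8.62% of all tested probe sets did so. In deposited intensities the count was 2, where the share of all tested probe sets was 8.6%. The brightest probe set of SPCP1 was apart only after quantile normalization, and its mean deposited intensity was lower in PVM. Of the 2 that were apart in both, the one of LOC547794 passed the filter through its PVM arrays alone, so its direction was fixed by the filter. The TIP median was 0.047 without quantile normalization and 0.020 when each array was centred on its soybean probe sets instead. Its 3 genes are SPCP1 (synonyms GmTIP1;3 and GmTIP1;7), LOC547794 (TIP1-6) and LOC100306092 (TIP2-3, synonym GmTIP2;5).

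SPCP1 had 1 probe set on which the layers were clearly apart. It measured 3089, 2893 and 2653 in PVM against 1438, 1699.5 and 1601 in PP. The 3 PVM arrays were alike and well apart from the 3 PP arrays. It differed by 1.00 on the log2 scale (SE 0.29), with an adjusted p of 0.261 by limma, and it stayed between 0.94 and 1.05 with any array left out. With an intensity trend and robust prior in limma its adjusted p was 0.0354. It was the sole aquaporin probe set to pass under any setting tried; that fit called 0.537% of all tested probe sets as higher in PVM and 0.0514% as lower.

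The other 4 tested probe sets of SPCP1 were closer to level. The brightest measured 6477, 6405 and 7177 in PVM against 7225, 6964 and 8621 in PP. The deposited values were lower in PVM on average and overlapped. After quantile normalization every PVM array lay above every PP array. The difference was 0.19 with quantile normalization and -0.18 without it. The probe set next in brightness was at 0.09 and -0.23 under these settings. The remaining 2 were at 0.26 and 0.43, with overlap. Of these 4, 3 carry a mark in their names for sequence shared between transcripts, which the one at 1.00 does not.

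**Figure D3:**
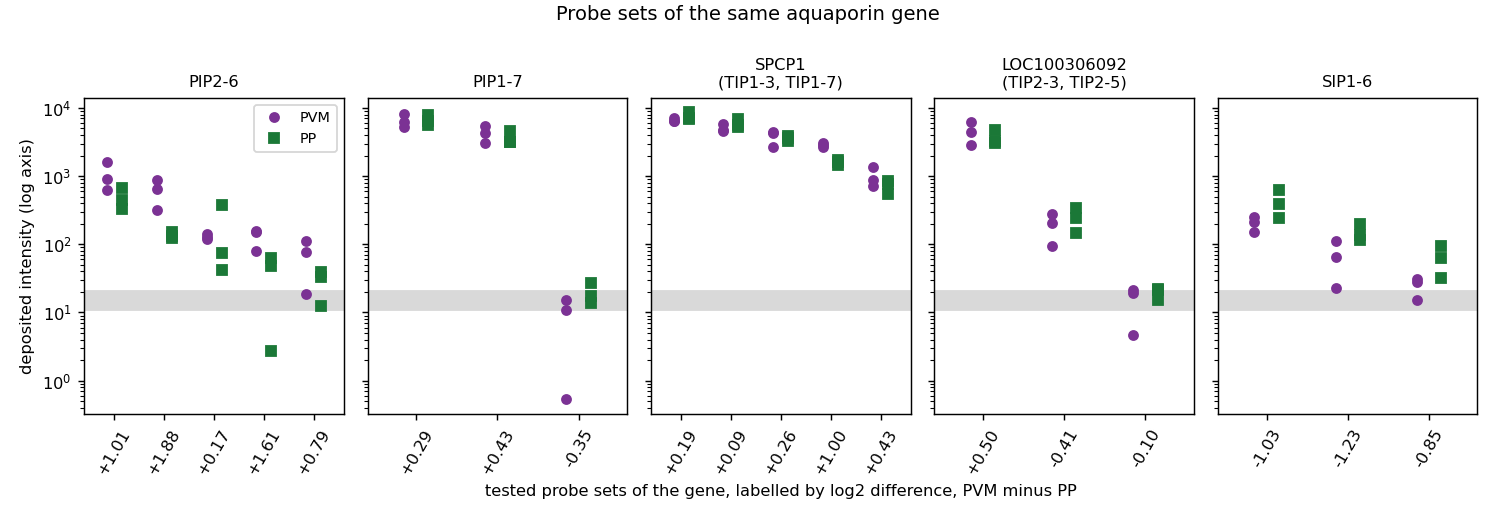
Deposited intensity on each array (y axis, log scale) for every tested probe set of 5 aquaporin genes, each column a probe set labelled by its log2 difference, PVM minus PP. Circles are PVM arrays, squares PP arrays and the grey band the background range; the 5 probe sets of PIP2-6 run from 0.17 to 1.88 and those of SPCP1 from 0.09 to 1.00.

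LOC547794 (TIP1-6) was dim. Its one tested probe set measured 48.8, 17.9 and 28.7 in PVM against 1.08, 2.42 and 12.6 in PP. All PVM arrays were above background and all PP arrays at or below it, so only a bound on the means can be given. That bound was 1.41-fold, with no error attached, and the adjusted p was 0.266 by limma. The probe set entered the test through its 3 PVM arrays alone, so this p, the bound and the direction support nothing. The bound sets the PVM mean against, on each PP array, the higher of the lowest normalized value above background and the measured value. The other 2 probe sets of LOC547794 were below background on every array.

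LOC100306092 (TIP2-3) overlapped on all 3 probe sets. The brightest measured 6214, 4418 and 2883 in PVM against 4787, 3079 and 3234 in PP, and differed by 0.50 (SE 0.41, adjusted p = 0.679 by limma). Its PVM arrays were spread more widely than its PP arrays. The second probe set differed by -0.41 and the third, near background, by -0.10, so the sign was not shared. Of the 9 genes with several tested probe sets, LOC100306092 and PIP1-7 were the 2 whose probe sets disagreed in sign.

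Probe sets with several gene symbols were left out of the members, and 3 of these include an aquaporin. One pair names LOC100527333 (synonym GmTIP2;2) together with LOC100781669. Its brighter probe set measured 2344, 2855 and 3195 in PVM against 1044, 883 and 1833 in PP, a log2 difference of 1.32 (adjusted p = 0.246 by limma). Every PVM array was above every PP array, but which of the 2 genes it measured cannot be told. Its dimmer probe set differed by 1.07. The remaining probe set lists SPCP1 more than once and measured 14060, 13646 and 13721 in PVM against 16750, 17688 and 18420 in PP. Its deposited values were lower on every PVM array than on any PP array, while the difference after quantile normalization was 0.16.

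The NIP subfamily was close to background on most arrays of both layers. NIP2-2, a silicon influx channel in soybean, was its tested member and measured 22.0, 69.9 and 28.0 in PVM against 14.4, 15.04 and 31.3 in PP. PP arrays 1 and 2 were below background and PVM array 2 was the highest. The log2 difference was 0.58 (SE 0.47, 95% interval -0.53 to 1.68, adjusted p = 0.677 by limma), and 0.16 without PVM array 2. N-26, the nodulin 26 gene (GmNIP1;5) known from the symbiosome membrane of root nodules, was above background on 2 PVM arrays, at 48.1 and 17.6, and on no PP array, and was not tested. NIP1-8 was above background on PP array 1 alone, at 26.2.

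The SIP subfamily was the one with every tested probe set lower in PVM, 5 of 5, with a median log2 difference of -1.03. The layers did not overlap for 2 of them, where 10.1% of all tested probe sets lay lower in this way. In deposited intensities they did not overlap for 3, where that share was 11.1%. The 5 probe sets measure 3 genes, SIP1-3, SIP1-4 and SIP1-6, and none passed the threshold.

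SIP1-6 was lower in PVM on all 3 of its probe sets. The brightest measured 213, 251 and 152 in PVM against 389, 619 and 243 in PP. PVM array 2 lay just above PP array 3 in intensity, and after normalization the layers were apart. Its log2 difference came to -1.03 (SE 0.42, 95% interval -2.02 to -0.04, adjusted p = 0.399 by limma). The second probe set measured 65.5, 113 and 22.5 in PVM against 137, 196 and 114 in PP and differed by -1.23 (SE 0.52). The third measured 31.3, 28.2 and 15.4 in PVM against 32.1, 94.6 and 62.9 in PP and differed by -0.85 (SE 0.45). There PVM array 3 was just below background. The deposited values were apart only by 31.3 against 32.1, and after normalization the layers overlapped. With any array left out, the 3 probe sets together stayed between -1.69 and -0.59.

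SIP1-4 had the lowest difference of all members. It measured 1.36, 50.4 and 16.6 in PVM against 60.8, 131 and 58.6 in PP. The PVM values were lower but spread widely, with PVM array 1 below background. The log2 difference was -1.51 (SE 0.58, 95% interval -2.86 to -0.15, adjusted p = 0.365 by limma), -1.02 without PVM array 1 and -2.07 without PVM array 2. With a pseudocount of 1 it was -2.61, and with 64 it was -0.78, since its values lie near the floor. SIP1-3 measured 387, 1518 and 1133 in PVM against 947, 856 and 1009.5 in PP. Its difference of -0.09 rested on PVM array 1, and without that array it was 0.51.

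The arrays of a layer differed in how far each clade stood from its mean. The median deviation of the 13 PIP2 probe sets from their own means was 0.17, 0.38 and 0.29 on PVM arrays 1 to 3, against -0.11, -0.52 and -0.08 on PP arrays 1 to 3. All PVM arrays lay above all PP arrays, with PP array 2 the lowest. For the 9 TIP probe sets it was 0.27, 0.05 and 0.35 in PVM against -0.03, -0.39 and -0.09 in PP. For the 5 SIP probe sets it was -0.49, 0.29 and -0.92 in PVM against 0.35, 0.98 and 0.37 in PP. PVM array 2 came close to PP arrays 1 and 3 for SIP, whereas PVM arrays 1 and 3 were low. For the 7 PIP1 probe sets it lay between -0.18 and 0.18 on every array, with no order by layer.

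**Figure D4:**
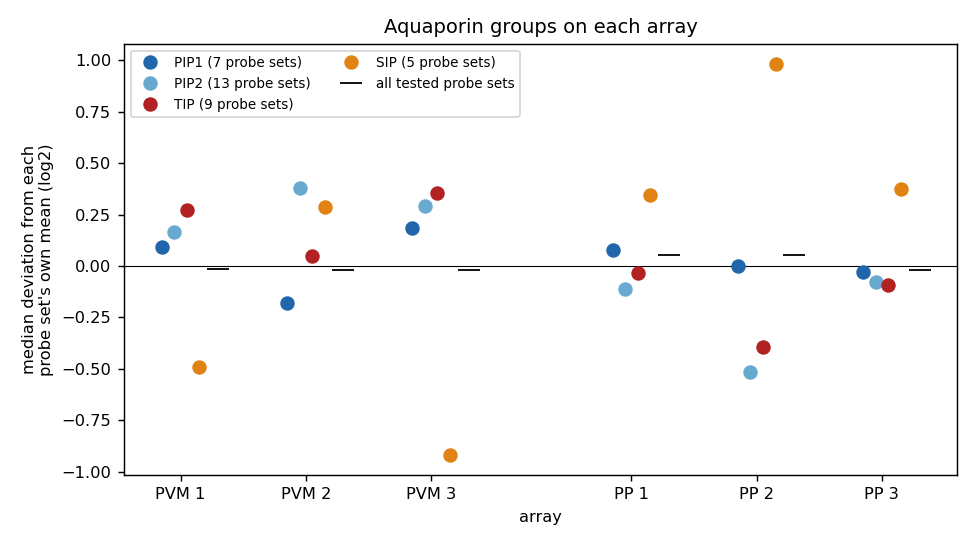
Median deviation of each clade's tested probe sets from their own mean over the 6 arrays (y axis, log2), on each PVM and PP array (x axis); dashes show all 25314 tested probe sets. PIP2 is above 0 on the 3 PVM arrays and below it on the 3 PP arrays, and SIP is highest on PP array 2 at 0.98.

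The 10 aquaporin probe sets that were not tested came from 8 genes, and for 6 genes no probe set was tested: N-26, NIP1-8, PIP1-4, PIP1-8, PIP2-1 and PIP2-10. Both probe sets of PIP2-1, the one of PIP2-10, 2 of LOC547794 and 1 of SPCP1 were at or below background on every array. PIP1-4 was above background on PVM array 1 (18.6) and PP array 2 (31.4). PIP1-8 was above it on PVM array 2 (14.2) and PP array 3 (73.9). These are probe sets at or near the limit of measurement, from which no difference between layers was drawn.

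Genes that act beside aquaporins were few among the named probe sets. No probe set was named for a proton pump of the tonoplast or the plasma membrane or for another aquaporin subfamily. AMT1.3, an ammonium transporter by its symbol, measured 1824, 1739.7 and 2854 in PVM against 4409, 4752 and 4061 in PP. Each PVM array was below each PP array, with a log2 difference of -0.90 (SE 0.35, adjusted p = 0.368 by limma). NHX1, a sodium/proton antiporter of the vacuolar membrane, measured 440.1, 557 and 481 in PVM against 315, 283 and 185 in PP where it was brightest, a difference of 0.79 (SE 0.33, adjusted p = 0.400). Its 3 other probe sets were at -0.57, -0.18 and 0.01, so they disagreed. The tested probe sets of CLC1, a chloride channel by its symbol, differed by 0.43 and 0.31. Of these 7 tested probe sets for channels and carriers, 4 were higher in PVM and 3 lower, and 0 passed the threshold.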

How the data were processed

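What the authors deposited is a table of linear intensities, a value for each probe set on each array. How they summarised and scaled it is not stated in the labels. The 2% trimmed mean came to 125 on every array, so the deposited intensities appear scaled to a common mean. Groups follow the sample titles, with which source names and cell types accord. One description line of the PP samples says paraveinal instead, and was not followed.

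Here log2(intensity + 16) was quantile-normalized over 61170 probe sets. Soybean probe sets above background on at least 3 arrays were fitted in limma (version 3.58.1, under R 4.3.3) (a 2-sided moderated test with layer as the sole term), Benjamini-Hochberg adjusted over 25314 probe sets at a threshold of 0.05. The series' design text calls the PVM replicates biological and the PP samples replicates without that word, so the spread between PP arrays, and the p-values with it, may be partly technical. Only 3 arrays a layer limit the precision: an exact permutation test of 3 against 3 cannot go below 0.1. On simulated PVM and PP arrays the same fit called 18% of 50 probe sets changed by a log2 size of 2 and 60% of 50 at 3, with 5 false calls, in a run on 25314 probe sets. Because 4-fold changes were mostly missed there, a missed threshold does not show equal levels.

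Symbols came from the platform annotation, updated through the RefSeq gene table, in which all 45 member probe sets matched. Of the soybean probe sets, 8677 have 1 symbol, 370 have several and 28546 have none here. No sequence was used here. The members, lists and tests were chosen with earlier results of these data known. In each subfamily up to 6 genes with the smallest unadjusted p, and the one with the highest mean, were to be named with values, by the brightest tested probe set. The 3 remaining genes and probe sets that disagree were added. MIPS, MIPS4 and AHAS3 matched list patterns by letters only and were left out.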

Additional observations from a re-analysis of the deposited data

How the results depend on the processing

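No aquaporin probe set passed the threshold under any alternative except 1, the SPCP1 probe set at 1.00, under the intensity trend and robust prior (1 call). Of 35 tested aquaporin probe sets, 29 kept their sign under the 16 alternative settings, and 11 of 559 values reversed. Without quantile normalization and with centring on the soybean median, the brightest PIP1-7 probe set was at -0.056 and -0.084, and the 2 brightest of SPCP1 were at -0.18 and -0.21 and at -0.23 and -0.25. The PIP2-6 probe set at 0.17 was at -0.26 with PP arrays 1 and 2 averaged, and between -0.43 and 1.01 with an array left out. SIP1-3 ran from -0.47 to 0.51 and the dimmest LOC100306092 probe set from -0.27 to 0.10 with an array left out.

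Medians moved in a few cases, and the cause was not tested. For all members the median was 0.46 with 1 probe set per gene, 0.17 with centring, 0.20 without quantile normalization, 0.19 without PP array 2 or without PVM array 3, and at most 0.40 with an array left out. For PIP it was 0.29 with no filter, 0.63 with array weights, 0.64 with 1 probe set per gene, 0.79 over probe sets with no mark for shared sequence, and 0.36 to 0.77 with an array left out. For PIP1 it was 0.028 with 1 probe set per gene, a turn of sign, and -0.21 to -0.039 with an array left out. For PIP2 it was 0.62 with no filter. For TIP it was 0.047 without quantile normalization, 0.020 with centring, 0.50 with 1 probe set per gene and over unmarked probe sets, and 0.14 to 0.47 with an array left out. The SIP median stayed within its spread between arrays under every alternative run.

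Over all tested probe sets 11 were called higher in PVM. That count was 1 with a pseudocount of 1, 54 with 64, 5 with no filter, 136 with the intensity trend, 1 at an adjusted p under 0.01, 0 with PP arrays 1 and 2 averaged, and 0 to 3 with an array left out, the 3 being without PVM array 2. The count lower in PVM, 0 by limma, was 3 with a pseudocount of 64 and 13 with the intensity trend. With the replicate number as a block, 0 were called and the smallest adjusted p of an aquaporin was 0.293. Deviations of same-numbered PVM and PP arrays correlated at 0.016, 0.030 and 0.049, and those of the other pairs at -0.042 to 0.010. Whether same-numbered samples shared a plant cannot be told from such small values. Signal near background limits NIP2-2, SIP1-4 and LOC547794 (TIP1-6) most.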
